A study of Mus musculus with 19 samples.

Results

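The 11 mice with graft-versus-host disease (GVHD) of the chronic, sclerodermatous form (Scl-cGVHD) differed from one another in the skin level of Krt16, a keratin of injured and inflamed epidermis, and were divided at 2000 TPM into a Krt16-high and a Krt16-low set. TPM is a length-corrected share of the transcripts in a library. The Krt16-high set held 7 mice and the Krt16-low set 4 mice, so that 11 of the 19 mice of the series were members and the 8 syngeneic recipients stood outside the division. The sets were chosen by the Krt16 values themselves, and the other genes were read in the same libraries, so every difference between the sets is a description with no test. No skin score could be tied to a single mouse, and the sets are therefore called by their Krt16 level and not as severe or mild disease.

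The study transplanted irradiated female BALB/c recipients with T-cell-depleted bone marrow and splenocytes from male mice, all 8 to 12 weeks of age. Donors were B10.D2 mice, mismatched at minor antigens, for Scl-cGVHD and BALB/c mice for the syngeneic controls. Recipients received a monoclonal antibody (mAb) against the chemokine CX3CL1, clone 5H8-4, or control IgG by intraperitoneal injection from day 7 to day 35, and whole skin was taken on day 42 for RNA sequencing. The Scl-cGVHD groups comprised 3 mice given control IgG, 3 mice given 0.5 mg of mAb and 5 mice given 1 mg. The syngeneic groups comprised 5 mice given mAb, at a dose that the labels do not state, and 3 mice given control IgG. The Krt16-high set consisted of 3 of 3 mice on IgG (ID_1535, ID_1537 and ID_1538), 1 of 3 on 0.5 mg (ID_1539) and 3 of 5 on 1 mg (ID_1544, ID_1545 and ID_1546). The Krt16-low set consisted of the other 2 mice on 0.5 mg (ID_1540 and ID_1541) and the other 2 on 1 mg (ID_1542 and ID_1543), so every Krt16-low mouse had received the antibody. Each library came from 1 mouse.

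Keratin filaments give keratinocytes their mechanical strength. Resting epidermis makes Krt5 and Krt14 in the basal layer and Krt1 and Krt10 above it, whereas wounding, psoriasis and other stresses bring on Krt6, Krt16 and Krt17 in the layers between follicles. Stressed keratinocytes also make small proline-rich and late cornified envelope proteins, which are cross-linked into the envelope of the dying cell, and calcium-binding alarmins of the S100 family. Sebaceous glands and hair follicles are appendages of the same epithelium, and their stem cells carry markers of their own.

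The libraries held 22699740 to 38841010 read pairs (median 29298146). The alignment summary could not be tied to single mice. A gene was kept where it reached 1 TPM in at least 3 of the 11 GVHD mice, which left 15123 genes, and differences are given on the log2(TPM + 1) scale as Krt16-high minus Krt16-low with the standard error (SE) from the spread among mice.

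Krt16 (chr11:100246091-100248902, GRCm38) was at 4069 TPM in mouse ID_1535, 2581 TPM in mouse ID_1537, 4416 TPM in mouse ID_1538, 5374 TPM in mouse ID_1539, 4717 TPM in mouse ID_1544, 4041 TPM in mouse ID_1545 and 8408 TPM in mouse ID_1546. In the Krt16-low set it was at 40.7 TPM in mouse ID_1540, 1363 TPM in mouse ID_1541, 1640 TPM in mouse ID_1542 and 697 TPM in mouse ID_1543. The nearest member above the limit was mouse ID_1537 and the nearest below it mouse ID_1542, which lay closer to each other than mouse ID_1542 did to mouse ID_1540. The 8 syngeneic mice ranged from 15.3 to 64.1 TPM, a range that held mouse ID_1540 but none of the other GVHD mice. The Krt16-low set was therefore 1 mouse at the syngeneic level and 3 mice between the syngeneic and the Krt16-high levels.

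**Figure D1:**
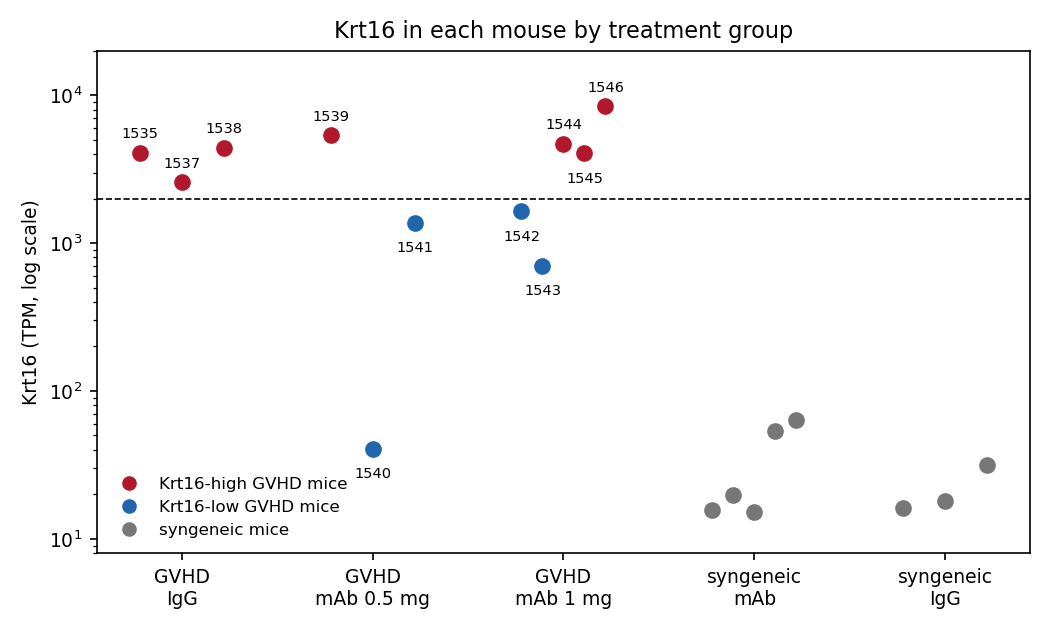
Krt16 in the skin of each mouse by group, in TPM on a log axis; each point is 1 mouse and the dashed line is the limit of 2000 TPM that divides the GVHD mice. All 3 GVHD mice on IgG lie above the line, whereas each antibody dose has mice on both sides of it.

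The partners of Krt16 followed the same division to different degrees. Krt6b (chr15:101676034-101680289), a type II keratin that pairs with Krt16, ranged from 2412 to 6897 TPM (median 3515) in Krt16-high mice, and was at 14.9, 581, 1668 and 533 TPM in Krt16-low mice ID_1540, ID_1541, ID_1542 and ID_1543, the order kept for the Krt16-low set throughout. The sets did not overlap, and the difference was 3.57 ± 1.48. Krt6a ranged from 1519 to 5747 TPM (median 2755) in Krt16-high mice, against 118, 962, 1569 and 614 TPM in Krt16-low mice. The 2 sets of Krt6a values overlapped, because mouse ID_1542 lay above the lowest Krt16-high mouse. Krt17, which is also made in hair follicles, ranged from 1091 to 2863 TPM (median 2080) in Krt16-high mice, against 708, 1917, 1485 and 667 TPM in Krt16-low mice, so the sets overlapped widely. Its syngeneic range, 836 to 2327 TPM, covered much of that spread. Dividing the mice into sets of 7 and 4 by the mean log2 level of Krt6a, Krt6b and Krt17 in place of Krt16 gave the identical sets. That cut fell between mouse ID_1545 at 10.71 and mouse ID_1542 at 10.62, a near tie. The set sizes were fixed beforehand and the keratins were read in the same mice, so the identity is a description only.

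Of the 15123 genes, 99 were higher in the Krt16-high set, with every Krt16-high mouse above every Krt16-low mouse and a difference of at least 1, which is 0.655% of the genes, and 464 were lower by the same rule, which is 3.07%. The rule that made the sets used this contrast, so nothing is read from these shares. The median over all genes was -0.25, and 72.4% of the genes had a negative difference. After scaling by median ratios of the genes, the median over all genes was -0.02 and the counts were 160 higher and 245 lower, so the size of the excess of lower genes depended on the scale, and differences are best read relative to -0.25. All 99 higher genes but only 244 of the 464 lower genes were called again on that scale. Without keratin genes the counts were 96 higher and 458 lower. Whole skin was sequenced, so fewer cells of a type and less RNA per cell cannot be told apart.

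**Figure D2:**
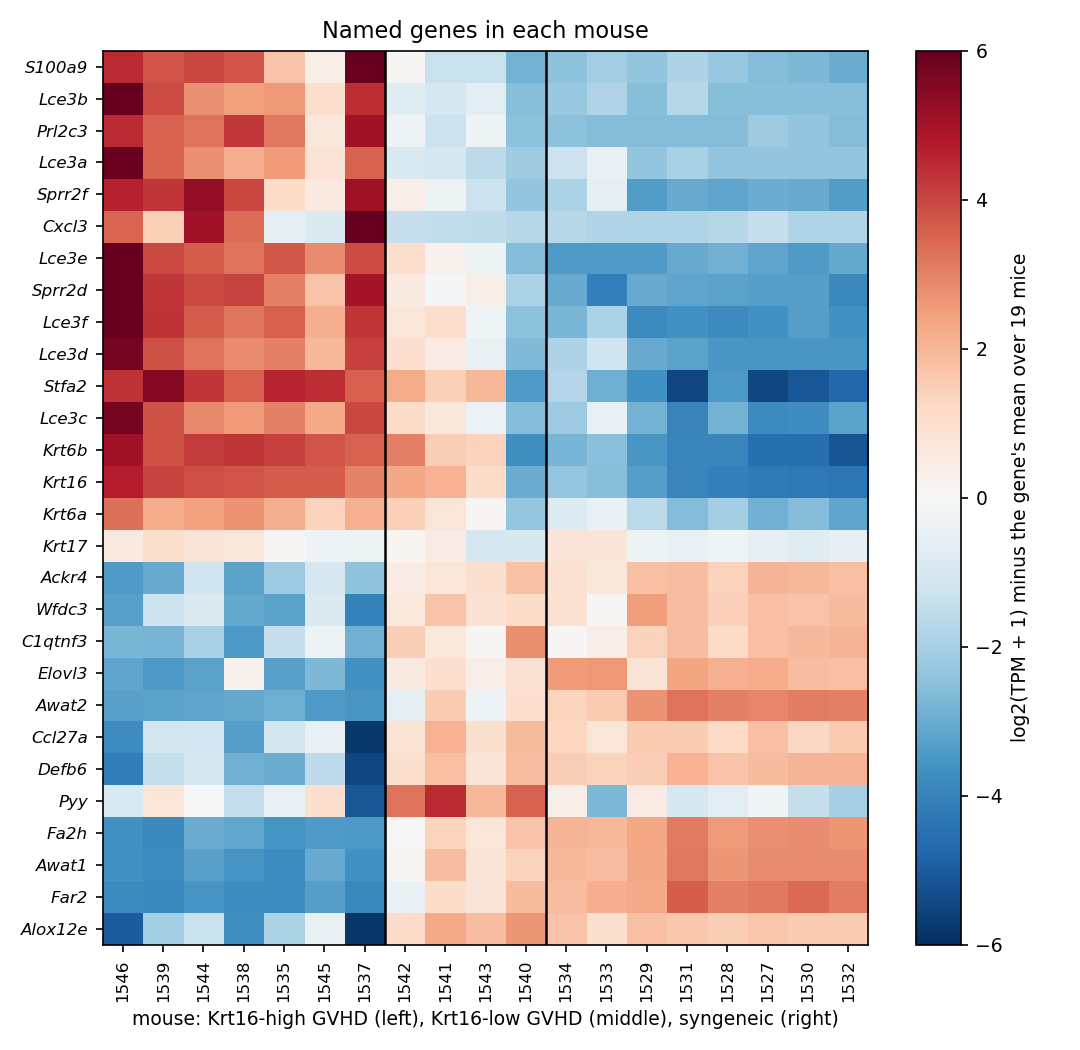
The 12 genes with the largest difference in each direction and the stress keratins in each mouse, as log2(TPM + 1) minus the mean of the gene over the 19 mice, with Krt16-high mice on the left, then Krt16-low mice, then syngeneic mice; each row is a gene and each column a mouse. Red is above and blue below the mean of the gene. The Krt16-high block is mostly red for the upper genes and mostly blue for the lower ones, and mouse ID_1540 has blue envelope genes like the syngeneic columns.

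Small proline-rich (Sprr) and LCE3 genes, whose proteins are precursors of the cornified envelope, had the most higher calls of the 44 gene lists. Of the 22 genes listed, 21 passed the low-level filter, 14 were called higher and 0 lower, with a list median of 3.57. The most abundant members, Sprr2a2 (1.44 ± 0.83), Sprr2a3 (1.84 ± 0.98) and Sprr1a (1.49 ± 0.60), were not called. The summed level of the list overlapped between the sets, at 12633 to 36070 TPM in Krt16-high mice and 1791 to 13233 TPM in Krt16-low mice. Sprr1b (chr3:92436809-92438789) ranged from 948 to 6078 TPM (median 2018) in Krt16-high mice, against 17.6, 449, 611 and 175 TPM in Krt16-low mice (3.58 ± 1.19). Sprr2d ranged from 84.8 to 1733 TPM (median 427) in Krt16-high mice, against 5.89, 23.9, 36.6 and 32.1 TPM in Krt16-low mice (4.28 ± 0.77). The syngeneic mice held 0.5 to 2.15 TPM of Sprr2d, so all 4 Krt16-low mice lay above them. Sprr2f ranged from 14.6 to 401 TPM (median 204) in Krt16-high mice, against 1.01, 7.27, 12.8 and 3.23 TPM in Krt16-low mice (4.46 ± 0.94). The lowest Krt16-high mouse and the highest Krt16-low mouse were therefore close for this gene.

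All 6 LCE3 genes had non-overlapping sets. Lce3f (chr3:92992226-92993426) ranged from 62.3 to 999.8 TPM (median 173) in Krt16-high mice, against 1.59, 27.9, 22.5 and 10.6 TPM in Krt16-low mice (4.15 ± 0.91). Lce3b ranged from 11.2 to 446 TPM (median 38.7) in Krt16-high mice, against 0, 1.78, 2.56 and 2.66 TPM in Krt16-low mice (4.61 ± 0.77). Within the Krt16-high set mouse ID_1546, which also had the most Krt16, was the highest for each LCE3 gene and mouse ID_1545 the lowest. Lce3a, Lce3c, Lce3d and Lce3e had differences of 4.46 ± 0.66, 3.76 ± 0.95, 3.93 ± 0.92 and 4.33 ± 0.88. These genes resemble one another in sequence: 43.0% of the 100-base stretches of Lce3f also occur in other LCE3 transcripts, against 0% for Lce3a, Sprr2d and Sprr2f, so the split of reads between some LCE3 genes is uncertain. The same holds in part for Krt16, with 24.3% of its stretches shared with Krt14 and Gm11597. It also holds for Krt6a and Krt6b, with 30.6% of each shared with the other and with near relatives. For Ccl27a 26.5% is shared with its copies. Of the stretches of Sprr2a1 and Sprr2a2, 92.5% and 92.8% occur in other Sprr2 transcripts.

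The envelope genes lie together in the epidermal differentiation complex on chromosome 3, where 70 genes between 90511034 and 93564643 passed the filter, 17 of them higher and 2 lower, with a median of 0.57. Rptn, which encodes the envelope protein repetin, ranged from 100 to 455 TPM (median 276) in Krt16-high mice, against 2.84, 18.3, 97.3 and 29.1 TPM in Krt16-low mice (3.48 ± 1.00). With 3.07% of all genes lower, 2 lower among 70 is no result about the complex. The 2 lower genes were Flg2, a filaggrin-like protein of the normal stratum corneum (-2.10 ± 0.82), and Lce1m (-1.96 ± 0.70). Both were in the list of resting differentiation genes, as was Rptn. That list as a whole had 2 higher (Rptn and Cnfn) and 2 lower among 30 tested, with a median of 0.25 that was -0.03 without mouse ID_1540.

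Promoters were read for these genes because they were higher together and lie side by side. The windows are RefSeq sequence of GRCm38.p6, from 250 bases before to 50 after the start of the transcript, and were searched on both strands for the AP-1 motif TGANTCA. Sprr2d, Sprr2f and Sprr1b are shown as members that hold a match, in capitals, and Lce3f as a member with none.
Sprr2d, chr3:92338890-92339189, plus strand: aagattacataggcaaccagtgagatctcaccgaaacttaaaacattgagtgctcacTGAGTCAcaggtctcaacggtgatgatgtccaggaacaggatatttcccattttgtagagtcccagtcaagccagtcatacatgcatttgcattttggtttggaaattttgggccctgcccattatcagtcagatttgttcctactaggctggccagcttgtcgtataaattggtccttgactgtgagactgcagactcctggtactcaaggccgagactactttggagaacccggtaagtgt
Sprr2f, chr3:92364937-92365236, plus strand: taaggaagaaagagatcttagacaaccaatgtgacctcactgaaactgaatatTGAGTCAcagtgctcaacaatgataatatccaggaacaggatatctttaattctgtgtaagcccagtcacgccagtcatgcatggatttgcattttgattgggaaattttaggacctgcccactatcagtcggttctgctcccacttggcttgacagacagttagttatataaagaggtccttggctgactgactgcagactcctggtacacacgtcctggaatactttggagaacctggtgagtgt
Sprr1b, chr3:92438730-92439029, minus strand: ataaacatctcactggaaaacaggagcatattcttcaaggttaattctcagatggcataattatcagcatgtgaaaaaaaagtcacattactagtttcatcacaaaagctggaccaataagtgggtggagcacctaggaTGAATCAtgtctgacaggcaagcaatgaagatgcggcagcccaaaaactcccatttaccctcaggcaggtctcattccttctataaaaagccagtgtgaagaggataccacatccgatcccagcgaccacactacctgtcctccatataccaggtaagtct
Lce3f, chr3:92991967-92992266, plus strand: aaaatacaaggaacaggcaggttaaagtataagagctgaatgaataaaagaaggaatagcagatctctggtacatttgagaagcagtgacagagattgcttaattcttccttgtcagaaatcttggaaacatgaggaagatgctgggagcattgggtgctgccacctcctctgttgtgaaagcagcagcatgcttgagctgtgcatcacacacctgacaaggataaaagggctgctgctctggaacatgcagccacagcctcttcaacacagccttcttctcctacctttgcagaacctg
The match began 193 bases before the start in Sprr2d, 197 in Sprr2f and 111 in Sprr1b, and in the 7 Sprr2 genes with a match the first one began 193 to 198 bases before the start. Matches were present in 9 of the 19 windows of the Sprr and LCE3 list (47.4%) and in 0 of 6 LCE3 windows. Over the higher genes 20 of 94 windows held one (21.3%), over the lower genes 41 of 480 (8.54%), over all genes tested 6.01%, and 7.81% of all 32851 RefSeq windows did. Several of the 20 matches over the higher genes fell in Sprr2 genes, at nearly the same place, so the 20 are not independent. The windows were also searched for NF-kB, C/EBP and TATA box motifs. A TATA box motif was in 27 of 94 higher windows (28.7%), against 8.19% over all genes tested. The excess was therefore not particular to AP-1. The NF-kB motif was in 2 of 94 (2.13%, against 0.477%) and the C/EBP motif in 0 of 94 (against 1.21%). A match is a string of letters and not a bound site.

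Cysteine protease inhibitors of the stefin A family and some serine proteases of the kallikrein family were higher as well. The stefin list had 5 higher and 0 lower among 9 genes tested (median 2.94, or 1.80 without mouse ID_1540). All 5 were among its 7 stefin A genes, and the other 2 members, Cstb and Cst6, were not called. The stefin A cluster at chr16:36119946-36455392 had 6 higher among 10 genes. Stfa2 ranged from 539 to 2043 TPM (median 895) in Krt16-high mice, against 3.21, 120, 206 and 175 TPM in Krt16-low mice (3.78 ± 1.35). BC100530, a stefin gene that was among the most abundant transcripts of the list, ranged from 4787 to 12203 TPM (median 7449) in Krt16-high mice, against 67.8, 1459, 3004 and 2512 TPM in Krt16-low mice (3.05 ± 1.29). Mouse ID_1540 was the lowest of the 11 for both. The list of kallikreins and related proteases had 5 higher and 0 lower among 16 tested (median 0.77), of which 4 were among its 10 Klk genes and the other was Tmprss11b, while 6 Klk genes were not called. Klk13 ranged from 49.8 to 189 TPM (median 112) in Krt16-high mice, against 1.2, 7.22, 23.9 and 14.8 TPM in Krt16-low mice (3.50 ± 0.79). Klk6 ranged from 545 to 1445 TPM (median 655) in Krt16-high mice, against 23.8, 252, 356 and 161 TPM in Krt16-low mice (2.49 ± 0.89). Epidermal serpins, which inhibit such proteases, were mixed, with 3 higher and 1 lower among 15. Serpinb3a was higher (2.76 ± 0.91) and Serpinb7 lower.

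Of 19 alarmins and antimicrobial proteins tested, 3 were called higher and 0 lower, with a list median of 1.98. S100a9 (chr3:90692632-90695721), a subunit of calprotectin made by neutrophils and stressed keratinocytes, ranged from 225 to 18705 TPM (median 2458) in Krt16-high mice, against 23.6, 70.5, 187 and 69.7 TPM in Krt16-low mice (4.90 ± 0.97). Its partner S100a8 ranged from 94.4 to 14065 TPM (median 1632) in Krt16-high mice, against 10.6, 40.4, 109 and 37.2 TPM in Krt16-low mice. The S100a8 sets overlapped, because mouse ID_1545 lay below mouse ID_1542. The third called gene, Chil1, a chitinase-like protein, was higher by 2.30 ± 0.75. Slpi, a secreted protease inhibitor, ranged from 23.8 to 952 TPM (median 133) in Krt16-high mice, against 3.14, 19.2, 16.1 and 9.96 TPM in Krt16-low mice (3.46 ± 0.83). Saa3, an acute-phase protein, overlapped between the sets, from 192 to 18983 TPM (median 1560) in Krt16-high mice, against 2.5, 627, 213 and 39.8 TPM in Krt16-low mice.

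The order of the Krt16-high mice differed between the alarmins and the envelope genes. Mouse ID_1537, the lowest of the set for Krt16, was the highest for S100a9, S100a8, Slpi and Cxcl3, whereas mouse ID_1546 was the highest for Sprr1b and the LCE3 genes. Cxcl3, a chemokine that attracts neutrophils, ranged from 0.93 to 922 TPM (median 34.1) in Krt16-high mice, against 0.07, 0.24, 0.33 and 0.19 TPM in Krt16-low mice (4.37 ± 1.19). Its relatives Cxcl1 and Cxcl2 overlapped between the sets, and Cxcl3 alone was called among the 9 genes of the neutrophil chemoattractant list (median 1.65, or 0.72 without mouse ID_1537). Neutrophil markers were read beside these genes. None of 16 tested was called higher or lower, which at shares of 0.655% and 3.07% over all genes is no result about these markers. Their list median was 1.61, and 13 of the 16 had a positive difference. Their summed level ranged from 79.6 to 5041 TPM in Krt16-high mice and from 103 to 132 TPM in Krt16-low mice, against 118 to 174 TPM in syngeneic mice. Mouse ID_1537 held the highest sum, and the other Krt16-high mice held at most 604 TPM. Ly6g, which defines mouse neutrophils, ranged from 0 to 26.2 TPM (median 1.1) in Krt16-high mice, against 0, 0.35, 0.07 and 0 TPM in Krt16-low mice. The part of neutrophils in the alarmin values was not tested.

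**Figure D3:**
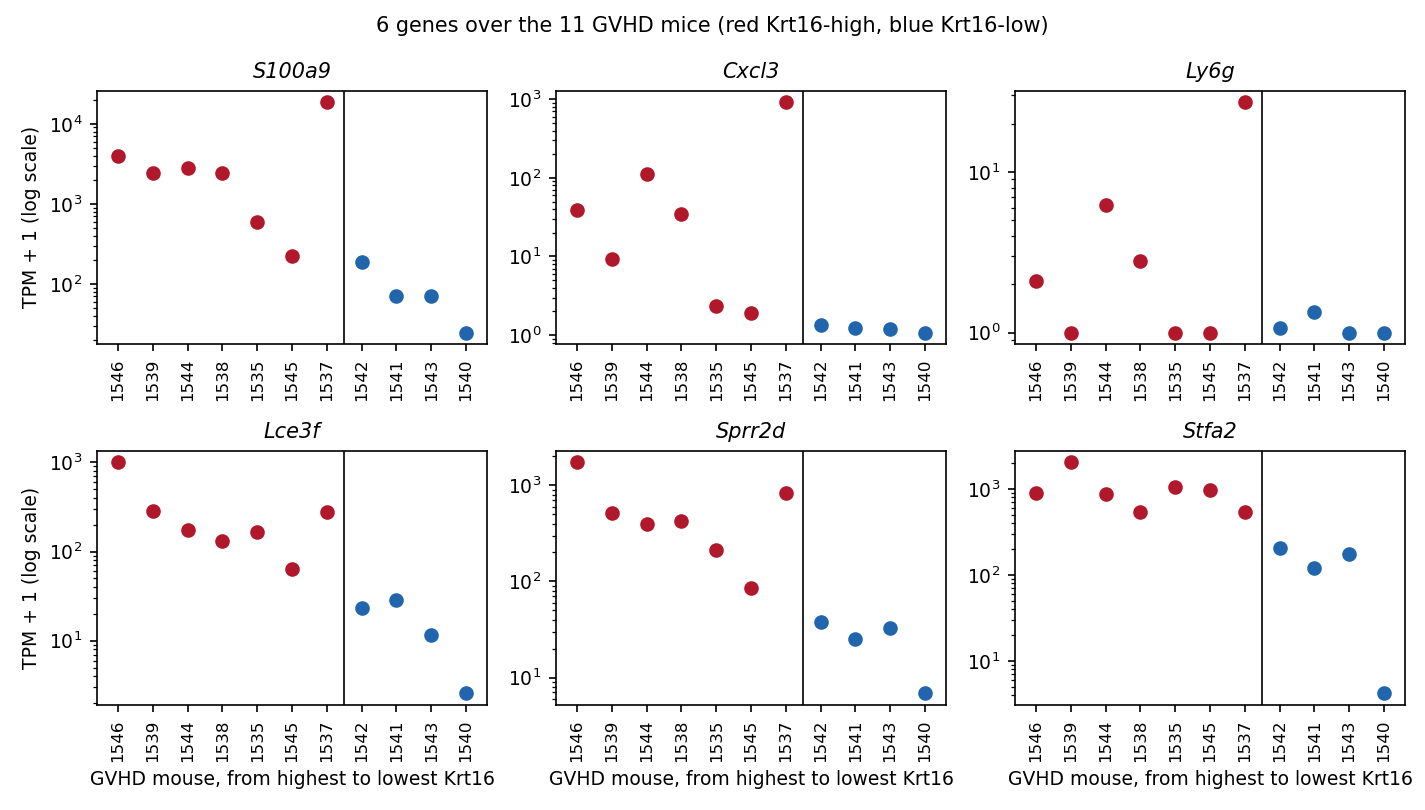
TPM + 1 on a log axis of 6 genes in the 11 GVHD mice, ordered from highest to lowest Krt16; each panel is a gene and each point a mouse, red for Krt16-high and blue for Krt16-low. Lce3f and Sprr2d are highest in mouse ID_1546, Stfa2 in mouse ID_1539, and S100a9, Cxcl3 and Ly6g in mouse ID_1537.

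Prl2c3, a secreted proliferin of the prolactin family, ranged from 8.82 to 204 TPM (median 70.7) in Krt16-high mice, against 0.13, 1.49, 4.04 and 3.94 TPM in Krt16-low mice (4.59 ± 0.74). Of its 100-base stretches 44.7% occur in other transcripts, so its reads are shared with relatives. Gjb6, a gap junction connexin of epidermis, was also higher (2.96 ± 0.51), as was Il19, a cytokine of the IL-10 family that acts on keratinocytes (2.09 ± 0.50). Each was the only higher call of a list that leaned the other way. The gap and tight junction list had 1 lower call and 7 of 11 negative (median -0.43). The IL-17, IL-22 and IL-20 list had 1 lower call and 8 of 12 negative (median -0.30). Among 20 macrophage and monocyte genes tested 2 were higher and 0 lower, with a median of 0.53, or 0.32 without mouse ID_1537. They were Trem2, a receptor of lipid-laden macrophages (1.19 ± 0.51), and Spp1, which encodes osteopontin. Spp1 ranged from 15.4 to 1412 TPM in Krt16-high mice, against 7.72, 11.2, 15.4 and 13.4 TPM in Krt16-low mice (2.70 ± 0.86). Its lowest Krt16-high and highest Krt16-low values were both 15.4 TPM after rounding, so the sets were apart by a near tie.

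Sebaceous gland genes were lower in the Krt16-high set. Of 14 tested, 8 were called lower and 0 higher, with a list median of -2.44. Far2 (chr6:148047259-148182758), a fatty acyl-CoA reductase that makes the alcohols of wax esters, ranged from 0.02 to 0.51 TPM (median 0.09) in Krt16-high mice, against 54.6, 31.2, 10.4 and 24.6 TPM in Krt16-low mice (-4.55 ± 0.48). The syngeneic range of Far2 was 54.0 to 189 TPM, which held mouse ID_1540 and lay above the other 3 Krt16-low mice. Awat1, an acyl-CoA wax alcohol acyltransferase, ranged from 0 to 0.68 TPM (median 0.1) in Krt16-high mice, against 33.8, 48.3, 13.4 and 21.8 TPM in Krt16-low mice (-4.53 ± 0.40). Fa2h, a fatty acid hydroxylase, ranged from 0.51 to 1.78 TPM (median 1.03) in Krt16-high mice, against 69.8, 54.8, 20.2 and 35.4 TPM in Krt16-low mice (-4.36 ± 0.40). All 3 genes were under 2 TPM in all 7 Krt16-high mice, whichever treatment they had received. Awat2, a related acyltransferase, ranged from 0.08 to 0.61 TPM in Krt16-high mice, against 23.4, 34.2, 7.13 and 8.69 TPM in Krt16-low mice (-3.63 ± 0.52). The summed level of the list overlapped between the sets, at 256 to 1293 TPM in Krt16-high mice and 586 to 2017 TPM in Krt16-low mice, against 1542.8 to 3119 TPM in syngeneic mice. Elovl3, a fatty acid elongase of the gland, ranged from 0 to 13.5 TPM (median 0.32) in Krt16-high mice, against 22, 23.6, 17 and 15.4 TPM in Krt16-low mice, and its highest Krt16-high value was in mouse ID_1538.

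Alox12e, an epidermal lipoxygenase, had the largest negative difference (-4.88 ± 0.82) of the genes counted with a mean of at least 5 TPM. It ranged from 0.31 to 53.7 TPM (median 16.4) in Krt16-high mice, against 462, 353, 165 and 268 TPM in Krt16-low mice, and from 145 to 258 TPM in syngeneic mice. Of the Krt16-low mice, mouse ID_1542 was within the syngeneic range and the other 3 were above it. Of 17 barrier lipid genes 1 was higher and 3 were lower (median -0.38). The higher one was Degs2, a sphingolipid hydroxylase (3.15 ± 0.91).

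Hair follicle stem cell genes had 9 lower and 0 higher among 11 tested, with a median of -1.42. Their summed level was 104 to 408 TPM in Krt16-high mice and 1021 to 2871 TPM in Krt16-low mice, against 2550 to 3903 TPM in syngeneic mice. In Krt16-low mice most of this sum was Krt15 and Krt79, keratins of the list whose values are also given singly. The sum is therefore not a result apart from theirs. Krt15 (chr11:100131758-100135928), a keratin of the bulge, ranged from 4.75 to 229 TPM (median 102) in Krt16-high mice, against 1622, 952, 437 and 713 TPM in Krt16-low mice (-3.81 ± 0.78). Sox9, a transcription factor of follicle stem cells, ranged from 3.25 to 5.70 TPM (median 3.75) in Krt16-high mice, against 14.7, 12.4, 12.4 and 12 TPM in Krt16-low mice (-1.40 ± 0.12). Its 4 Krt16-low values lay close together, unlike those of Krt15. Genes of the hair shaft had sums that overlapped between the sets. The sum was 7.02 to 34.1 TPM (median 25.2) in Krt16-high mice and 22.1 to 35.8 TPM (median 29.5) in Krt16-low mice. Only 7 of these genes passed the filter, with 0 called, 5 of 7 negative and a list median of -0.46. At shares of 0.655% and 3.07% over all genes, 0 calls among 7 is no result about them.

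Keratins of resting skin were mixed. Krt77, a keratin of the upper layers and sweat ducts, ranged from 0.17 to 718 TPM (median 358) in Krt16-high mice, against 2485, 2530, 1683 and 2246 TPM in Krt16-low mice (-4.71 ± 1.43). Krt79, of the upper follicle, ranged from 1.5 to 120 TPM (median 57.7) in Krt16-high mice, against 826, 815, 413 and 480 TPM in Krt16-low mice (-3.89 ± 0.75). Krt14, by contrast, ranged from 5402 to 15730 TPM (median 7604) in Krt16-high mice, against 2080, 3929, 4011 and 4211 TPM in Krt16-low mice (1.2 ± 0.31). Of the 22 keratins tested, 3 were higher (Krt14, Krt16 and Krt6b) and 6 were lower (Krt15, Krt23, Krt32, Krt75, Krt77 and Krt79).

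Other genes with large negative differences did not share a list. Defb6, a beta-defensin, ranged from 9.67 to 235 TPM (median 64.1) in Krt16-high mice, against 1746, 1666, 921 and 816 TPM in Krt16-low mice (-4.14 ± 0.67). Ccl27a, a keratinocyte chemokine that draws T cells to the skin, ranged from 2.5 to 141 TPM (median 87.4) in Krt16-high mice, against 731, 837, 347 and 383 TPM in Krt16-low mice (-3.83 ± 0.81). The Krt16-low values of Ccl27a lay within or above its syngeneic range of 320 to 678 TPM. Pyy, the gene of the hormone peptide YY, ranged from 0.63 to 110 TPM (median 41.4) in Krt16-high mice, against 660, 1265, 541 and 224 TPM in Krt16-low mice (-4.20 ± 0.93). Ackr4, a scavenging receptor for chemokines, was lower by the same rule (-3.31 ± 0.45), as were Wfdc3 (-3.45 ± 0.55) and C1qtnf3 (-3.46 ± 0.71). For Ackr4 the Krt16-high mice held at most 6.94 TPM, against 52.3, 25.0, 21.3 and 30.4 TPM in Krt16-low mice and 24.2 to 63.8 TPM in syngeneic mice. Syngeneic mice held 7.75 to 79.9 TPM of Pyy, so its Krt16-low values were the highest of the 3 sets.

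Markers of the tissue under the epidermis had few calls. Beside 0.655% higher and 3.07% lower over all genes, such counts are no result about lists of this size. Their medians and sums are given as a description. Among 20 collagen and fibroblast genes 2 were lower and 0 higher, with a median of -1.29, or -0.82 without mouse ID_1540, and their sum was 618 to 3828 TPM in Krt16-high mice and 1466 to 10344 TPM in Krt16-low mice, against 5829 to 15803 TPM in syngeneic mice. Mouse ID_1540 alone of the Krt16-low mice reached the syngeneic range. Col1a1, the main fibrillar collagen, ranged from 13.8 to 316 TPM (median 21.5) in Krt16-high mice, against 991, 58.0, 74.5 and 79.4 TPM in Krt16-low mice, and the sets overlapped through mouse ID_1537. The 2 lower genes were Lum, the matrix proteoglycan lumican (-3.04 ± 0.88), and Dpt, which encodes dermatopontin (-1.83 ± 0.52). Skeletal muscle genes had 2 lower among 18 (median -1.16), adipocyte genes 0 among 13 (median -0.82, or -0.16 without mouse ID_1540) and mitochondrially encoded genes 0 among 13 (median -1.15). The part of these tissues in the biopsies, as a cause of the epidermal differences, was not tested.

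**Figure D4:**
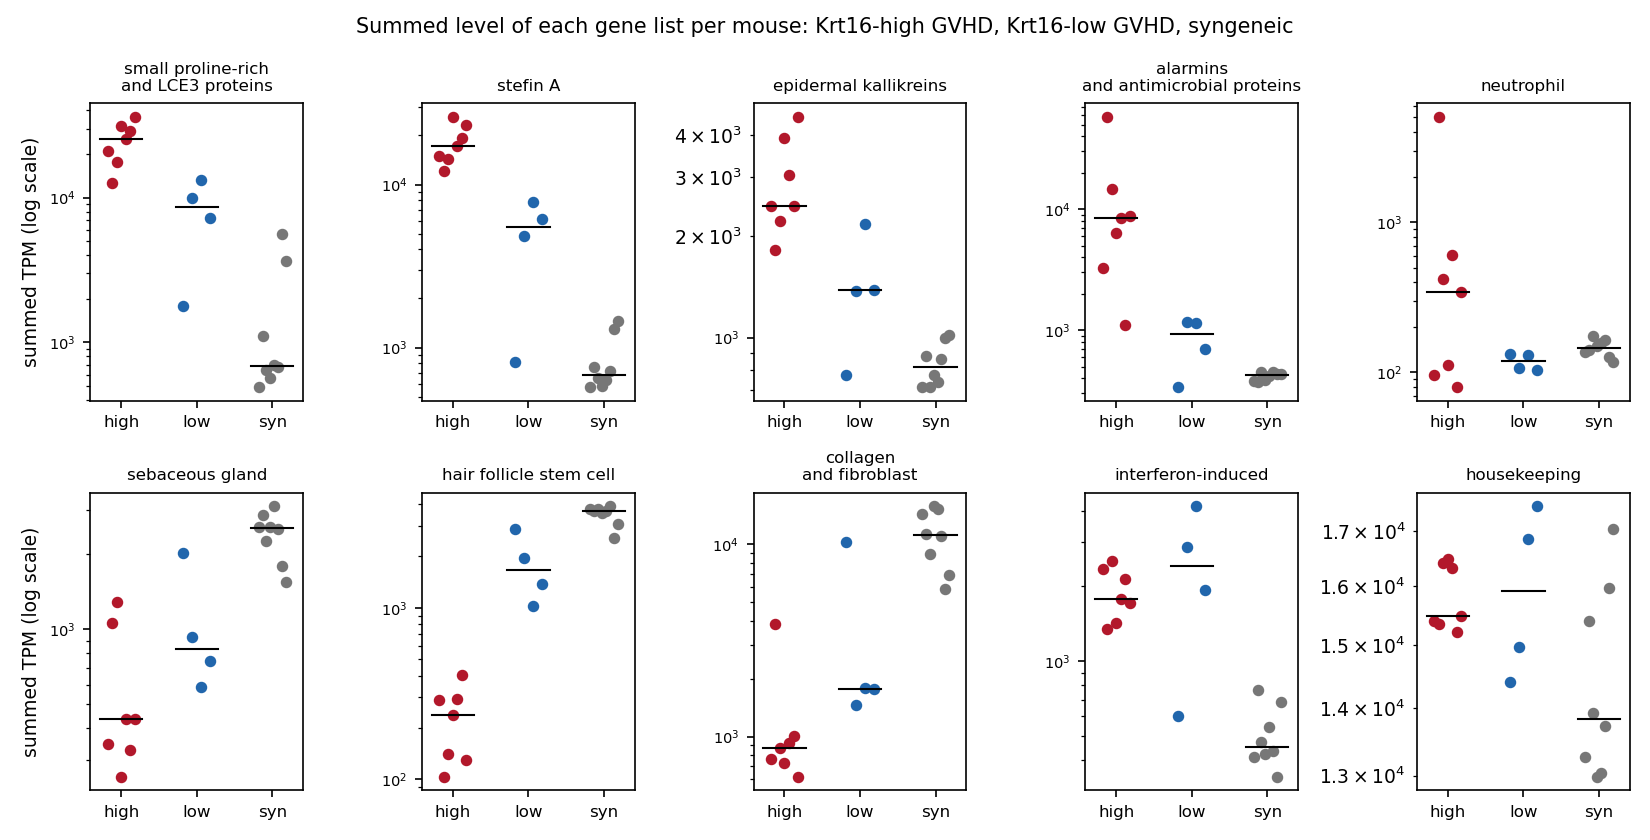
Summed TPM of 10 gene lists in each mouse, on log axes, with Krt16-high (red), Krt16-low (blue) and syngeneic (grey) mice side by side; each point is 1 mouse and each bar the median of its set. Stefin A sums are 12052 to 25981 TPM in Krt16-high mice and 814 to 7864 TPM in Krt16-low mice, hair follicle stem cell sums run the other way, and the interferon and housekeeping sums of the sets overlap.

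Lists of immune signalling had few or no calls, which at shares of 0.655% and 3.07% over all genes is no result about lists of this size. Interferon-induced genes had 0 higher and 0 lower among 27 (median -0.09, or -0.66 without mouse ID_1540), MHC and antigen presentation genes 0 and 0 among 14 (median -0.59, with 11 of 14 negative), and T cell genes 0 and 0 among 14 (median 0.07). The summed T cell level was 48.9 to 224 TPM in Krt16-high mice and 68.2 to 133 TPM in Krt16-low mice, against 29.5 to 54.2 TPM in syngeneic mice. Cytotoxic genes, cell cycle genes and dendritic cell genes also had 0 called. Genes of the IL-1 and IL-36 family had 0 called among 15, endothelial genes 0 among 14, glycolysis and hypoxia genes 0 among 21 and desmosome genes 0 among 15. The IL-17, IL-22 and IL-20 axis had 1 higher and 1 lower among 12, and monocyte and T cell chemokines had 2 lower among 21, Ccl27a and Ccl19. Housekeeping genes had a median of 0.03. Cx3cl1, the target of the antibody, ranged from 3.46 to 6.95 TPM (median 4.72) in Krt16-high mice, against 9.16, 7.94, 9.55 and 8.69 TPM in Krt16-low mice. Its sets did not overlap, with a difference of -0.76 ± 0.12 that stayed under the size limit of 1.

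The syngeneic mice took no part in the division and place the 2 sets on a common scale. Over the 99 higher genes the median difference from syngeneic skin was 2.53 in Krt16-high mice and 0.61 in Krt16-low mice. Every Krt16-high mouse was above every syngeneic mouse for 80 of the 99 genes, whereas all 4 Krt16-low mice were for 10. Over the 464 lower genes the median difference from syngeneic skin was -1.64 in Krt16-high mice and -0.24 in Krt16-low mice. Every Krt16-high mouse was below every syngeneic mouse for 319 of the 464 genes, whereas all 4 Krt16-low mice were for 39. Mouse ID_1540 lay within the syngeneic range for 77.8% of the higher and 65.3% of the lower genes. Mice ID_1541, ID_1542 and ID_1543 did so for 43.4%, 30.3% and 37.4% of the higher genes, and the Krt16-high mice for 7.07% to 18.2%. The Krt16-low mice thus lay nearer to syngeneic skin than the Krt16-high mice did, as a description of genes chosen for that contrast.

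**Figure D5:**
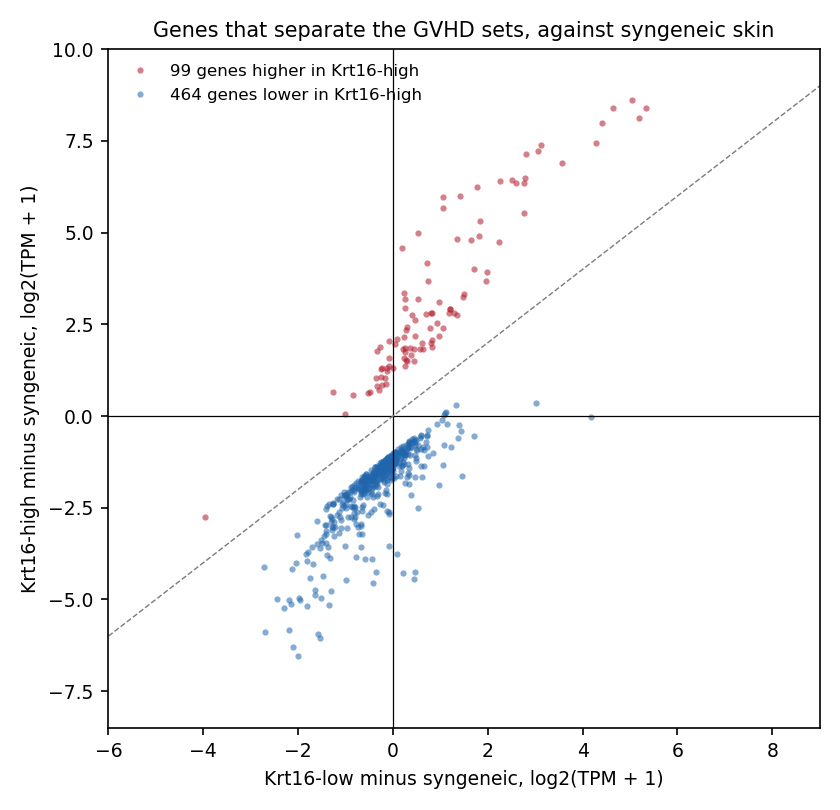
Difference from the syngeneic mice for each gene called higher or lower, as mean log2(TPM + 1), with the Krt16-high set on the vertical and the Krt16-low set on the horizontal axis; each point is a gene, red for the 99 higher and blue for the 464 lower genes, and the dashed line marks equal values. The red point far to the left is Prr9, whose syngeneic values ran from 0.94 to 3738 TPM.

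The division holds treatment within it, so the sizes of the differences were also read at each antibody dose. Their sign there was fixed by the choice of genes whose sets did not overlap, and is no check on treatment. Over the higher genes the median difference was 2.24 at 0.5 mg (1 Krt16-high and 2 Krt16-low mice) and 1.44 at 1 mg (3 and 2 mice), against 1.90 over all mice. Over the lower genes it was -1.65 at 0.5 mg and -1.10 at 1 mg, against -1.32 over all mice. IgG mice fell in the Krt16-high set alone, so no value within IgG exists. Without mouse ID_1540 the medians were 1.60 and -1.19, and without mouse ID_1537 they were 1.78 and -1.24.

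Whether the antibody moved Krt16 is a question about the treatment groups, which the labels fixed. Krt16 averaged 3689 ± 975 TPM in GVHD mice on IgG, 2259 ± 2777 TPM on 0.5 mg and 3901 ± 3016 TPM on 1 mg (SD, n = 3, 3 and 5). The log2 difference from IgG was -2.42 at 0.5 mg (two-sided exact permutation test, p = 0.4, where 0.1 is the smallest p possible) and -0.34 at 1 mg (exact permutation p = 0.75). Over both doses it was -1.12 (exact permutation p = 0.521), and the p adjusted over the 3 comparisons was 0.75 for each. None of the 3 comparisons passed the threshold. Single mice decided the sizes: the difference at 0.5 mg was -0.41 without mouse ID_1540 and -3.91 without mouse ID_1539, and that over both doses was -0.36 without mouse ID_1540.

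Across 16350 genes, limma called 1118 genes higher (6.84%) and 2925 lower (17.9%) in GVHD mice on IgG than in syngeneic mice on IgG, at an adjusted p under 0.05. With median-ratio factors the counts were 1676 higher and 1872 lower, so the excess of lower genes depended on the scale. Without mouse ID_1527, a syngeneic mouse on IgG, they were 653 higher and 1369 lower, and without ID_1528, ID_1529, ID_1537 or ID_1538 they were 747 to 803 higher and 1450 to 1837 lower. These GVHD mice belong to the Krt16-high set, so the values share mice with the division and are set beside it only. In that comparison limma gave Krt16 a log2 difference of 7.35 (adjusted p = 0.00163), Sprr1b 9.14 (0.0016), Lce3f 7.45 (0.0033), Stfa2 8.11 (0.0031) and S100a9 6.49 (0.0112). Far2 was at -6.63 (0.00323), Krt15 at -6.48 (0.00162) and Alox12e at -5.46 (0.0148). Krt17 (0.52, adjusted p = 0.472), Krt77 (-5.70, adjusted p = 0.0539) and Pyy (-2.24, adjusted p = 0.183) did not pass.

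Within GVHD, limma compared each antibody dose with IgG. At 0.5 mg 2 genes passed as higher (0.0122%) and 7 as lower (0.0428%). The 2 higher genes, named after their values were seen, were Baz2b (1.02, adjusted p = 0.0475) and Plac9b (1.46, adjusted p = 0.0475), and neither was counted between the Krt16 sets. For 1 mg limma called 0 genes (0.0%), while 756 had a positive and 918 a negative difference with an unadjusted p under 0.05. Krt16, S100a9 and Far2 did not pass. The adjusted p from limma of Krt16 was 0.402 at 0.5 mg and 0.98 at 1 mg, that of S100a9 was 0.242 and 0.586, and that of Far2 was 0.225 and 0.676. Pyy had differences of 5.24 at 0.5 mg (adjusted p = 0.104) and 3.38 at 1 mg (adjusted p = 0.32) by limma. S100a9, Far2 and Pyy were named because they separated the Krt16 sets. All IgG mice were Krt16-high and every Krt16-low mouse had received mAb. That choice favoured a dose difference of the same sign, so these values are no separate result about treatment. The counts of genes called at each dose turned on single mice. Leaving out IgG mouse ID_1535 gave 271 higher and 545 lower genes at the smaller dose and 338 and 329 at the larger. Without mouse ID_1539, the Krt16-high mouse on 0.5 mg, limma called 149 higher and 77 lower at that dose. Without mouse ID_1546 it called 17 and 29 at 0.5 mg. Mouse ID_1546 was on 1 mg and in neither group of that comparison. All groups were fitted together, so leaving it out changed only the shared spread and the gene filter.

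In the 8 syngeneic mice, which the division did not use, 16 of 20 listed stress genes had enough expression to be set against Krt16. For 8 of the 16 the relation passed at an adjusted p under 0.05 by exact permutation of Pearson's r, and for 1 by Spearman's rho. No share over all genes stands beside these counts, so they are no result about stress genes in particular. Mice ID_1533 and ID_1534, both on mAb, stood apart with the highest Krt16 and with hair shaft genes far above the other mice, so no pooled r is given. Without them 0 of 16 passed by r (smallest adjusted p = 0.244, exact permutation), although 15 of 16 coefficients were positive, and by rho 2 passed, Krt6b and Sprr2d (adjusted p = 0.0444 by exact permutation, n = 6). In these 6 mice r was 0.846 for Krt6a and 0.845 for Krt6b (adjusted exact permutation p = 0.244 for both) and 0.832 for Sprr1b (adjusted exact permutation p = 0.311), so the calls by r depended on those 2 mice while these 3 coefficients stayed high.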

How the data were processed

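Skin RNA of 19 mice was sequenced by the authors, and the deposited table gives TPM per gene and mouse. Per the labels and the study's methods, reads were trimmed with Trimmomatic, aligned to GRCm38 with STAR 2.5.2b and quantified with RSEM 1.2.31. The deposited alignment summary gives read counts per library. TPM values have the same total in each library, so a rise of abundant transcripts lowers the others.

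GVHD mice were divided at Krt16 of 2000 TPM, and genes of at least 1 TPM in at least 3 of them were compared as log2(TPM + 1). A gene was counted where the sets did not overlap and the mean difference was at least 1; no test was run. Treatment groups were compared by exact permutation and by limma 3.58.1 in R 4.3.3 with Benjamini-Hochberg adjustment over all genes, tested on simulated data. Named genes were the 12 largest differences in each direction with a mean of at least 5 TPM, up to 3 members of each of 44 lists, the stress keratins, and others chosen after their values were seen. The members and lists were chosen with earlier results of these data known. Promoter sequences are from RefSeq (GRCm38.p6), where 11028 of the 15123 genes matched.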

Additional observations from a re-analysis of the deposited data

Results flagged for a closer look

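Each of 84 sets of values, 1 gene or list sum in the 7 Krt16-high or the 4 Krt16-low mice, was searched for a mouse whose gap to its neighbour was wide against the range of the set, by Dixon's 95% critical values (0.568 for 7 mice and 0.829 for 4). For normally distributed values chance gives about 5 flags in 100 such sets, and 20 were found here. The search used untransformed TPM, which need not be normal, and all 20 flags fell on the highest mouse of a set. The rate of 5 in 100 may therefore not hold, and 20 is not read as an excess. Of these, 10 fell on mouse ID_1537, 4 on mouse ID_1546 and 3 on mouse ID_1540, and related genes are not independent flags.

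In mouse ID_1537, on IgG, S100a9 stood at 18705 TPM with the next Krt16-high mouse at 3948 TPM, S100a8 at 14065 TPM, Slpi at 952 TPM and Cxcl3 at 922 TPM. The same mouse held the highest Ly6g (26.2 TPM) and Csf3r (73.7 TPM), both neutrophil genes, and the highest sums of the alarmin list (57861 TPM), of the neutrophil list (5041 TPM) and of the collagen and fibroblast list (3828 TPM). Its Col1a1 was at 316 TPM, with the next mouse of the set at 27.5 TPM.

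Mouse ID_1546, on 1 mg of mAb, had the highest Krt6b (6897 TPM), Sprr1b (6078 TPM), Lce3f (999.8 TPM) and Lce3b (446 TPM). Single flags were Stfa2 at 2043 TPM in mouse ID_1539, Elovl3 at 13.5 TPM in mouse ID_1538 and C1qtnf3 at 10.6 TPM in mouse ID_1545. Within the Krt16-low set mouse ID_1540 stood apart for Cd34 (288 TPM), Col1a1 (991 TPM) and the sum of the collagen and fibroblast list (10344 TPM). The causes of these values were not tested.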

How the results depend on the processing

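No paired analysis was possible because each mouse has an ID of its own and the groups share no replicate numbers. Of 588 values for 28 named genes under 21 alternatives, 0 reversed and 21 moved by more than the spread. Those genes were the 12 largest differences in each direction of this same division and the stress keratins. Few reversals were possible after that choice, so their absence is no support. Of 44 list medians, 25 kept their sign in every alternative. The count of higher genes (99) was 160 with median-ratio factors, 160 with a Krt16 limit of 1000 TPM, 22 with a limit of 3000 TPM, 164 with treatment as a term and 153 in mAb-treated mice alone, an alternative chosen after seeing the data; leaving out single mice gave 91 to 155. The count of lower genes (464) was 245 with median-ratio factors, 100 with a limit of 3000 TPM and 1028 with treatment as a term, and 383 to 881 without single mice. With treatment as a term the sets had to be apart only within each antibody dose, and IgG mice were left out of that check. This rule is looser than the one behind 99 and 464, so 164 and 1028 cannot be compared with them. The lower count was highest without mouse ID_1541, and the higher count without mouse ID_1542 or ID_1545. The limit of 3000 TPM moves mouse ID_1537 to the low set, and 11 of the 99 and 29 of the 464 genes were shared with it. With the limit of 1000 TPM 42 of the 99 and 234 of the 464 were shared. Krt16 at 1 mg against IgG was 212 TPM higher on untransformed TPM and lay between -0.73 and 0.16 on the log2 scale without single mice, the positive value being without mouse ID_1543. The limma count of lower genes in GVHD was 1872 with median-ratio factors, and without single mice 653 to 1238 were higher and 1369 to 2561 lower. At 0.5 mg limma called 0 higher and 0 lower with a pseudocount of 0.1, 6 and 11 with no filter, 25 and 24 with median-ratio factors and 4 lower with a filter at 5 TPM, and 0 to 271 higher and 0 to 545 lower without single mice. At 1 mg it called 3 lower with no filter, and 0 to 338 higher and 0 to 329 lower without single mice. In syngeneic skin 0 of 16 relations passed in 6 mice. Apart from those named, the causes of these shifts were not tested. The low set of 4 mice, 1 of them at the syngeneic level, and the lack of any IgG mouse among them limit every difference.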

Other observations

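For a few genes, found after their values were seen, all 4 Krt16-low mice lay above every Krt16-high mouse and every syngeneic mouse, with a mean difference of at least 1 on the log2(TPM + 1) scale from each of the other sets. Among them were Pyy, Ear2, Fcgbp, Skint1, Skint2, Gm8113, Mill1, Fgl2, Trbv15, Tcaf2 and Serpina3h. Skint1, which in mice is needed for the epidermal gamma-delta T cells, ranged from 1.26 to 41.3 TPM (median 33.9) in Krt16-high mice, against 60.5, 56.3, 60.0 and 56.3 TPM in Krt16-low mice, and from 15.8 to 27.0 TPM in syngeneic mice. Its relative Skint2 ranged from 0.35 to 15.5 TPM in Krt16-high mice, against 58.5, 30.5, 31.7 and 28.5 TPM in Krt16-low mice, and from 12.9 to 22.8 TPM in syngeneic mice. Mill1, an MHC class I-like gene, ranged from 2.19 to 31.5 TPM in Krt16-high mice, against 56.7, 64.0, 67.3 and 54.5 TPM in Krt16-low mice, and from 19.8 to 32.5 TPM in syngeneic mice. For Skint1, Skint2 and Mill1 mouse ID_1540 was with the other Krt16-low mice, unlike for Krt16, where it was at the syngeneic level.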
